A study of Homo sapiens with 22 samples.

Results

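Human BJ fibroblasts, an established line of foreskin fibroblasts, were carried towards pluripotency in microfluidic chips by daily transfection of mRNAs that code for POU5F1, SOX2, KLF4, MYC, LIN28 and NANOG. Described here are the cells of D3, D5 and D7, all within the time of the 8 transfections, that were rich in 3 inflammatory transcripts. A cell was selected by its measured level: the UMIs (unique molecular identifiers) of CXCL1, CXCL8 and IL1B together had to reach 1000 CPM, which is 0.1% of all UMIs of the cell. Of the 13472 cells kept on these days, 560 were chosen and 12912 were not. The whole series held 41975 kept cells in 22 libraries, and the cells of D0 had received no transfection. All groups shared the cell line, the chips and, from D3 to D7, the transfection medium, and differed in the day of harvest. Each day was sampled as 2 pools, A and B, each made of the cells of 4 chips, so that the 6 pools are the replicates (n = 6) and chosen and other cells were compared within each pool. The labels do not say that the 2 pools of a day came from separate starting cultures. The p-values therefore measure how far the difference between chosen and other cells varied between pools of 1 cell line.

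CXCL1 and CXCL8 are chemokines, secreted proteins that attract neutrophils through the receptors CXCR1 and CXCR2. IL1B is the precursor of interleukin 1 beta, which acts on the receptor IL1R1 and, through the NF-kappaB transcription factors, induces the same chemokines in fibroblasts. Together with matrix metalloproteinases such as MMP3, plasminogen activators and growth factors, they belong to the senescence-associated secretory phenotype (SASP), the set of proteins that stressed or senescent fibroblasts release.

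The chemokine genes of the cluster on chromosome 4 are shown with a stretch of promoter around or in front of their start, because they hold the same motif within it. The levels of CXCL1 and CXCL8 were fixed by the choice of cells. CXCL1 is shown at chr4:73869273-73869382 (plus strand), CXCL2 at chr4:74099206-74099315 (minus), CXCL3 at chr4:74038700-74038809 (minus), CXCL6 at chr4:73836558-73836667 (plus) and CXCL8 at chr4:73740449-73740558 (plus), with the inhibitor of NF-kappaB NFKBIA at chr14:35404760-35404869 (minus strand of chromosome 14). The sequences are those of RefSeq on GRCh38.p14, written 5′ to 3′ from base −120 to base −11 before the transcription start, and capitals mark GGAATTTCC or, in NFKBIA, its reverse complement.
CXCL1: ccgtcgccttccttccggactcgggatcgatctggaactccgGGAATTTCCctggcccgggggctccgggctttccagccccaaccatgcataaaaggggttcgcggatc
CXCL2: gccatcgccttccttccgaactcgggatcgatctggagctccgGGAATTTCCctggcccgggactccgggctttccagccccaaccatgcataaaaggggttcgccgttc
CXCL3: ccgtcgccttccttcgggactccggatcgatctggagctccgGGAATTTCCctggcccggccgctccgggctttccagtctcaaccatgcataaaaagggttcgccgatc
CXCL6: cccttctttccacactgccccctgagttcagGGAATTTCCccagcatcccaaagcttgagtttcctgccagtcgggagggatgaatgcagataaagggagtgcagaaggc
CXCL8: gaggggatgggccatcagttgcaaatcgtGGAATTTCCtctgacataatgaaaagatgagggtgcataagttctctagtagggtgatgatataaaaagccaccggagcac
NFKBIA: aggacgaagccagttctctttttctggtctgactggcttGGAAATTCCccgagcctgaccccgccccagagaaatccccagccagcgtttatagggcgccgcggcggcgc
The motif begins at base −78 in CXCL1, −77 in CXCL2, −78 in CXCL3, −89 in CXCL6, −91 in CXCL8 and −81 in NFKBIA, counted from the RefSeq start. In GENCODE the genes CXCL6 and CXCL8 start inside the stretch shown, so for them this place depends on the annotation.

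GGAATTTCC, on either strand, was in 162 of the 35116 promoter windows of 300 bases in the reference table, or 0.461%. Among the chemokine genes with a window it was in 8 of 13, and among NF-kappaB subunits and feedback genes in 5 of 25. The chemokine windows counted here include those of CXCL1 and CXCL8, which chose the cells and both hold it. The windows of CXCL1, CXCL2 and CXCL3 are close copies of one another, so their matches are not separate occurrences. The other list was drawn up from genes tied to NF-kappaB, so its count is no independent evidence. The longer NF-kappaB consensus, searched like the next motif on both strands and overlapping it in CXCL1, CXCL2, CXCL3, CXCL6 and NFKBIA, was in 5.91% of all windows, in 8 of the 13 chemokine windows and in 10 of the 25. CXCL10 and CXCL11, which hold GGAATTTCC too, were found in 0.497% and 0.141% of cells and were not among the genes tested. In a fit that included such genes they had log2 fold changes of 0.55 (edgeR adjusted p = 0.35) and 0.26 (adjusted p = 0.88). Their means were at most 0.973 CPM in each class, too low to show whether they changed. The AP-1 letters TGANTCA were in 7.71% of all windows and, of the genes shown, in CXCL8 at base −137. The window of IL1B held none of the 3. MMP3 was not among the windows used here. The choice of the windows shown and the counts over the lists were made after the values had been seen, and a match of letters is a description.

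The chosen cells made up 2.02% and 1.11% of the kept cells of pools A and B on D3, 14.3% and 7.85% on D5, and 2.32% and 4.51% on D7. In numbers these were 38 of 1881 and 53 of 4779 cells, 252 of 1767 and 64 of 815 cells, and 40 of 1727 and 113 of 2503 cells. Both pools of D5 lay above the 4 pools of D3 and D7, and pool A of D5 alone gave 252 of the 560 cells. With no cell at this level among the 10776 of D0, 3 counts would be a share of 0.0278%, and the upper end of the exact 95% interval was 0.0342%. On D9, outside the days chosen, 5.97% and 3.33% of cells reached the level, but of the 2 aliquots of pool A one held 0 of 143 cells, for which 3 counts would be 2.10% and the exact upper end 2.55%, and the other 104 of 1599. Later shares were 0.205% and 1.80% on D11, and at most 0.290% in each pool of D13 and D15. The level chose the cells, so these shares carry no test, and their intervals cover counting error only.

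**Figure D1:**
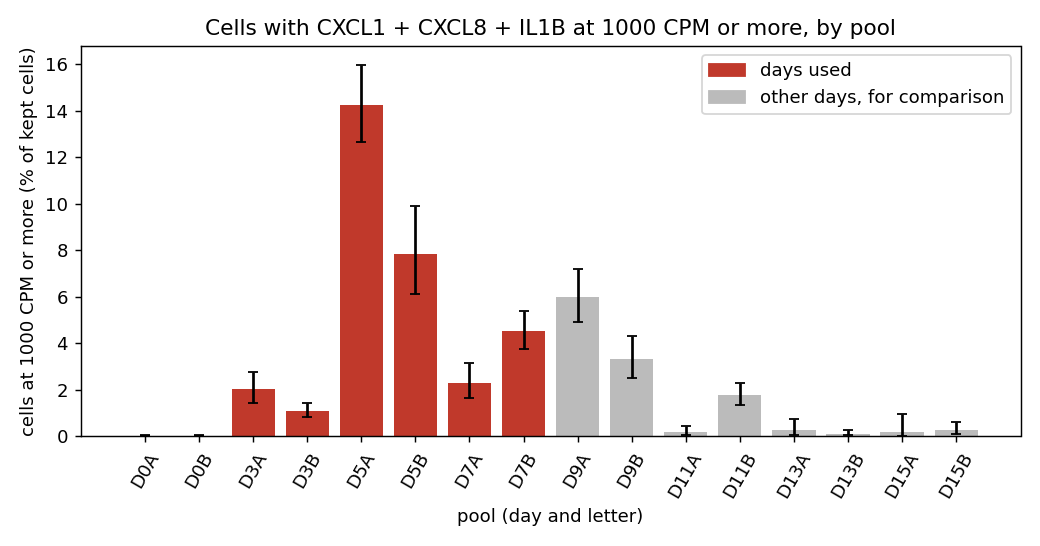
Share of kept cells (y axis, %) with CXCL1, CXCL8 and IL1B together at 1000 CPM or more in each of the 16 pools (x axis), with the days used in red. Bars carry exact 95% binomial intervals (Clopper-Pearson). The pools of D5 stand at 14.3% and 7.85%, and those of D0 at 0.

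Among the 560 cells CXCL1 was the most counted of the 3 transcripts in 528, CXCL8 in 29 and IL1B in 3. A UMI of all 3 was found in 190 cells, whereas 303 cells had none of IL1B. In the order D3A, D3B, D5A, D5B, D7A, D7B, used for all series of 6 values below, CXCL1 stood at 2004, 1581, 3071, 3272, 2668 and 2126 CPM in the chosen cells and at 29.9, 31.5, 108, 84.1, 65.9 and 71.9 CPM in the other cells. The other cells thus also lay above the fibroblasts of D0, which had 1.54 and 1.48 CPM, and the part of free RNA in these levels was not tested. CXCL8 stood at 407, 149.6, 835, 1163, 265 and 259.8 CPM in chosen cells and at 2.00, 1.70, 9.62, 9.71, 2.46 and 3.05 CPM in the others, against 0.132 and 0.204 CPM on D0. It was highest in both pools of D5.

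IL1B stood at 31.2, 54.3, 157, 149, 74.1 and 16.3 CPM in chosen cells and at 1.44, 1.504, 4.33, 2.82, 1.04 and 1.22 CPM in the others. In the other cells of D3 and D7 this was close to the 1.51 and 1.38 CPM of D0. With every cell thinned to 5000 UMIs, a depth that each of these cells reached, an IL1B UMI was found in 5.31 to 25.8% of chosen cells and in 0.271 to 2.38% of the others, against 0.619% and 0.669% on D0. Without thinning the shares were 23.9 to 57.5% and 3.15 to 11.02%. These 3 genes fixed the choice, and their levels are given as a description.

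The summed level of the 3 genes had a median of 2136 CPM over the chosen cells and reached 24366 CPM, and 105 cells were at 5000 CPM or more. The 47 cells just below the limit, from 900 to 1000 CPM, had a median of 33.0 UMIs of the 3 genes, and the 38 cells just above, up to 1100 CPM, had 33.5, as the limit itself sets. MMP3 stood at 41.3 CPM in the former and at 18.0 CPM in the latter. When the UMIs of each cell were split at random into 2 equal parts and cells chosen on 1 part, 499 of 570 cells also reached 1000 CPM in the other part. In that part CXCL1 stood at 2612 CPM, against 59.7 CPM in the cells not chosen, and IL1B at 101 CPM against 1.77. Both parts hold UMIs of the same cells and capture, so the agreement covers counting error only and is no independent support.

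Chosen cells were shallower, with a median of 43150.5, 22598, 35772, 32529.5, 64471 and 40121 UMIs per cell, against 46365, 28846, 46220, 39944, 80586 and 51268 in the others. The total is the denominator of the rule, so this difference has no test. Their median share of mitochondrial UMIs was 2.04 to 3.65% and 2.46 to 4.42% in the others. The sums compared held between 1363230 and 9760060 UMIs in chosen cells, and between 32970711 and 149650161 in the others. Of the chosen cells, 0 to 3.54% were among the 5% of their library with most UMIs, and no doublet caller was run. A barcode also present in another library was found for 33 chosen cells (5.89%) and for 5.75% of the others.

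The label of inflammatory fibroblasts was compared with marker lists. Of 12 leukocyte markers, the defining PTPRC, TYROBP, LYZ and CD14 had a mean of at most 0.606 CPM in chosen cells, and 9 were under 1 CPM. The summed leukocyte list was nevertheless higher in chosen cells, at 55.7 to 204 CPM against 20.6 to 58.9, through CD68 (64.4 CPM) and SRGN (45.8 CPM). The fibroblasts of D0 had more of both, 87.8 and 53.5 CPM. Of the fibroblast markers 8 of 10 were called higher in chosen cells and THY1 lower, where 17.4% of all genes tested were called higher and 17.1% lower. The summed fibroblast list was 11249 to 17682 CPM in chosen cells and 6464 to 14672 CPM in the others, both below the 20732 to 21205 CPM of D0. Of the members called higher, COL1A1 and PDGFRB had means above D0 in chosen cells, and the rest had means below it. Of the melanocyte markers 5 of 6, and of the keratinocyte markers KRT5, KRT14, KRT1 and TP63, had no UMI in any chosen cell. In the other cells these markers had means of at most 0.0391 CPM, so their absence says little. KRT10 was called higher in chosen cells (332 against 266 CPM) and SFN lower (1.83 against 7.01 CPM). The endothelial marker EGFL7 was called higher (22.6 against 17.1 CPM). The summed levels of the lists in chosen and other cells were 0 to 1.18 and 0.241 to 1.16 CPM for melanocytes, 289.7 to 399 and 224 to 331 CPM for keratinocytes, and 17.7 to 33.7 and 11.3 to 26.9 CPM for endothelial cells.

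Without the 3 choosing genes, 12300 genes were compared between chosen and other cells of the same pool. Of these 2143 were called higher in chosen cells (17.4%) and 2098 lower (17.1%) by edgeR's quasi-likelihood test. A call needed a Benjamini-Hochberg adjusted p under 0.01 together with a change of over 0.25 on the log2 scale. At an unadjusted p below 0.05 there were 6691. The median log2 fold change over all genes was −0.02. With cells thinned to 5000 UMIs, 690 genes were called higher and 927 lower. A change was thus common among all genes, and the main counts of each gene group below are read against 17.4% and 17.1%. Under other settings fewer or more genes were called, so these shares do not apply there.

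The other chemokines stood out by size. Of the 8 chemokine genes tested, 7 rose and none fell, with a median log2 fold change of 3.13. CXCL2, a neutrophil chemokine (chromosome 4, 74097040 to 74099196), stood at 58.9, 38.1, 61.2, 38.9, 47.5 and 12.5 CPM in chosen cells and at 0.976, 0.695, 2.33, 2.31, 1.03 and 0.980 CPM in the others. Chosen cells were the higher in each pool and the groups did not overlap (log2 fold change 5.02, SE 0.25, adjusted p = 1.4e-09). CXCL6 (chromosome 4, 73836640 to 73849064), which shares the receptors of CXCL8, had 32.4, 21.3, 166, 117, 95.1 and 82.5 CPM in chosen cells and 3.82, 2.05, 10.7, 10.3, 6.82 and 10.5 CPM in the others (log2 fold change 3.58, SE 0.13, adjusted p = 7.8e-11). CXCL3 rose as well, from a mean of 5.30 to 61.3 CPM (log2 fold change 3.65, SE 0.23, adjusted p = 1.3e-08). CXCL1, CXCL2 and CXCL3 are close copies of one another, and how reads common to them were assigned is not given in the sources used here, so their single levels are uncertain. CXCL1 chose the cells, so the rises of CXCL2 and CXCL3 may not be independent of the choice, which was not tested.

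CCL2, which attracts monocytes (chromosome 17, 34255274 to 34257208), had 256, 261, 423, 346, 543 and 498 CPM in chosen cells and 29.5, 22.5, 80.1, 84.3, 63.7 and 85.7 CPM in the others, with every chosen value above every other value (log2 fold change 2.85, SE 0.15, adjusted p = 2.0e-09). CCL11, the eosinophil chemokine eotaxin, was counted among the 7 but was lower in chosen cells of 2 pools, and its log2 fold changes were 0.02 on D3, 0.02 on D5 and 3.03 on D7 (edgeR adjusted p of the difference between days 2.0e-07). Without pool A or without pool B of D7, 5 chemokines were called higher, and over all 12300 genes 2103 and 1817. CCL11 was singled out after its values were seen. The remaining 8 chemokines of the list were in fewer than 5% of cells and were not tested. In a fit that included them CCL8, CXCL16 and CCL5, named after their values were seen, were called higher (log2 fold changes 4.08, 1.71 and 1.45). Each was lower in chosen cells of 2 pools, and the rest were not called. In chosen cells CCL8 and CXCL16 had means of only 1.55 and 1.28 CPM, with 0 CPM of both in pool B of D3. Such levels are near the floor.

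Of the cytokines and growth factors of the SASP, 12 of the 15 tested rose and 1 fell, with a median of 1.13. The lists were chosen with results on these cells known, so their directions are no independent evidence. EREG, a ligand of the epidermal growth factor receptor, had 87.2, 66.8, 155, 93.9, 50.9 and 62.5 CPM in chosen cells and 12.3, 18.7, 18.2, 8.43, 2.88 and 8.32 CPM in the others (log2 fold change 3.13, SE 0.19, adjusted p = 9.3e-09). D0 fibroblasts stood at 65.3 and 70.5 CPM, within the range of the chosen cells. AREG, a ligand of the same receptor, rose by 2.81 on the log2 scale, TNFRSF11B, a decoy receptor that binds the bone cytokine RANKL, by 2.50, and STC1, a secreted glycoprotein, by 2.42. TNFSF9, the ligand of the T cell costimulator 4-1BB, was the member that fell, being lower in 4 of 6 pools (log2 fold change −1.62, a gene named after its value was seen).

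HGF, the hepatocyte growth factor (chromosome 7, 81699010 to 81770438), had 47.1, 58.0, 94.7, 89.1, 53.4 and 51.1 CPM in chosen cells and 15.4, 20.6, 24.5, 14.3, 8.58 and 15.2 CPM in the others, the former always above the latter (log2 fold change 2.11, SE 0.13, adjusted p = 1.3e-08). Its receptor MET (chromosome 7, 116672196 to 116798377) went the other way, with 8.25, 9.54, 4.82, 4.76, 3.69 and 6.27 CPM in chosen cells and 15.9, 25.3, 13.5, 15.8, 14.2 and 14.1 CPM in the others (log2 fold change −1.33, SE 0.13, adjusted p = 1.3e-06). The ligand was thus higher and the receptor lower in the same cells, in all 6 pools.

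The genes of plasminogen and HGF activation gave 6 higher and 3 lower of 10, with a median of 1.27. PLAU, the urokinase that turns plasminogen into plasmin, had 692, 149, 540.2, 269, 253 and 205 CPM in chosen cells and 137, 38.9, 122, 59.6, 35.8 and 58.3 CPM in the others (log2 fold change 2.29, SE 0.10, adjusted p = 4.1e-10). Chosen cells were above the others in each pool and above D0, at 41.5 and 41.8 CPM. PLAUR, its receptor, rose by 1.91 and PLAT, the tissue plasminogen activator, by 2.17 on the log2 scale. MET was one of the 3 members that were lower.

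Of matrix metalloproteinases and their inhibitors 8 of 14 rose and 2 fell, with a median of 0.90. MMP1, the interstitial collagenase (chromosome 11, 102789401 to 102798160), had 7248, 3262, 7917, 6048, 3519 and 2233 CPM in chosen cells and 1713, 1009, 1351, 716, 299 and 362 CPM in the others (log2 fold change 2.68, SE 0.17, adjusted p = 1.6e-08). MMP3, or stromelysin 1 (chromosome 11, 102835801 to 102843609), had 33.6, 8.80, 152, 298, 272 and 22.7 CPM in chosen cells and 3.40, 3.88, 14.7, 7.28, 15.5 and 6.49 CPM in the others. It was higher in chosen cells of each pool, but its groups overlapped, with pool B of D3 the lowest (log2 fold change 3.59, SE 0.36, adjusted p = 1.3e-06). Only 22 of the 560 chosen cells had MMP3 at 500 CPM or more, that is 5.56% and 7.81% of those of pools A and B of D5, 5% in pool A of D7, 2.63% in pool A of D3 and none in pool B of either day. Of the other cells 2, 3, 10, 1, 6 and 2 reached the same MMP3 level (0.0635 to 0.660%). Chosen cells made up 33.3, 0, 58.3, 83.3, 25 and 0% of all cells at this level. A higher sum can come from more cells with the transcript or from more UMIs per cell. At 5000 UMIs per cell, an MMP3 UMI was found in 7.89, 1.89, 19.0, 21.9, 15.0 and 5.31% of chosen cells. In the other cells these shares were 1.68, 1.74, 4.62, 5.06, 5.57 and 2.59%, nearly the same as in chosen cells in pool B of D3. TIMP3, an inhibitor of these enzymes, rose by 1.19 on the log2 scale.

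**Figure D2:**
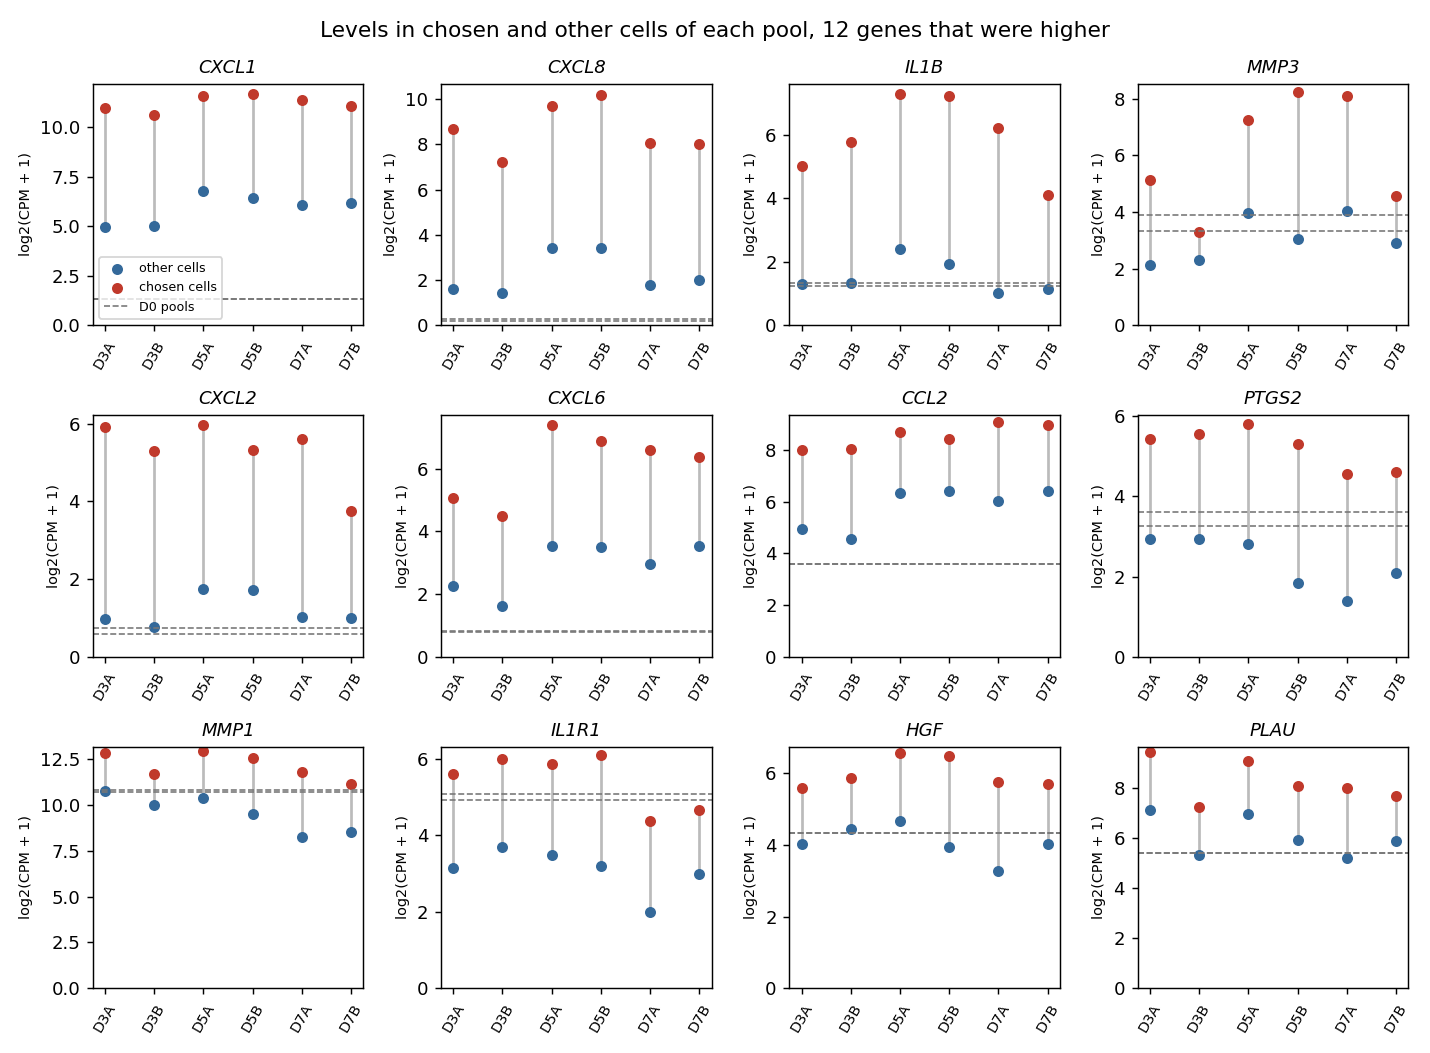
Levels of 12 genes in chosen cells (red) and other cells (blue) of each of the 6 pools, joined by a line (y axis, log2(CPM + 1)), with both D0 pools as dashed lines. CXCL1, CXCL8 and IL1B chose the cells. In the other 9 genes chosen cells lie above the other cells in each pool, by the least for MMP3 in pool B of D3 (8.80 against 3.88 CPM).

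Receptors and regulators of interleukin 1 and TNF gave 6 higher and none lower of 11 tested, with a median of 0.46. IL1R1, the receptor of interleukin 1 beta (chromosome 2, 102064544 to 102179874), had 47.7, 63.1, 56.9, 68.3, 19.9 and 24.5 CPM in chosen cells and 7.92, 12.05, 10.3, 8.13, 2.98 and 6.91 CPM in the others, with no overlap (log2 fold change 2.58, SE 0.12, adjusted p = 1.0e-09). On D0 it stood at 29.4 and 32.9 CPM, above the other cells of each pool. CASP1, the protease that cuts the IL1B precursor, rose from 15.7 ± 5.79 to 67.2 CPM ± 29.4 (SD, n = 6 pools; edgeR log2 fold change 2.196), and IRAK3, a brake on this receptor, by 1.47 on the log2 scale.

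Of NF-kappaB subunits and feedback genes 17 of 23 rose and none fell, with a median of 0.81. PTGS2, the inducible cyclooxygenase of prostaglandin synthesis, had 42.4, 46.2, 55.0, 38.9, 22.5 and 23.5 CPM in chosen cells and 6.68, 6.69, 6.02, 2.55, 1.60 and 3.29 CPM in the others, without overlap (log2 fold change 3.25, SE 0.15, adjusted p = 7.7e-10). TNFAIP3, which ends NF-kappaB signalling, rose by 3.35 and ICAM1, an adhesion molecule for leukocytes, by 2.33 on the log2 scale. NFKBIA, described because its promoter is shown above and after its values were seen, stood at 315, 330.1, 228, 226, 179 and 169 CPM in chosen cells and 37.2, 50.7, 62.5, 61.3, 60.3 and 60.6 CPM in the others (log2 fold change 2.17, SE 0.17, adjusted p = 8.5e-08). Its excess over the other cells was largest on D3 (2.97 on D3, 1.95 on D5 and 1.63 on D7 on the log2 scale).

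Several SASP genes were found in fewer than 5% of all cells and lay outside the genes tested. In a fit without that filter CSF3, the granulocyte colony-stimulating factor, had 48.9, 24.2, 81.2, 90.4, 43.9 and 29.4 CPM in chosen cells and 1.35, 1.39, 2.36, 2.97, 1.03 and 0.706 CPM in the others. Every chosen value was above every other value (log2 fold change 5.01). SERPINB2, a plasminogen activator inhibitor, changed by 4.27 and IL6 by 2.95 in this fit, IL6 with 7.07, 2.201, 15.4, 19.0, 19.9 and 6.66 CPM in chosen cells and 1.42, 0.214, 1.84, 1.27, 1.27 and 2.45 CPM in the others, where the groups overlapped. A gene found in no more than the 560 chosen cells could not reach 5% of 13472, and these genes, picked after their values were seen, are given as values only.

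Genes of lipid mediators and of phagocyte-like cells gave 5 higher and 1 lower of the 6 tested, with a median of 2.27. C3, a complement component whose gene overlaps GPR108 on the same strand, rose by 3.17 and G0S2, an inhibitor of fat breakdown, by 3.49 on the log2 scale. PI3, the elastase inhibitor elafin, was called at 2.39 but was higher in chosen cells of only 3 pools, with 0, 0, 0.922, 52.3, 198 and 166 CPM against 0.174, 0.0869, 7.01, 5.82, 17.8 and 27.4 CPM. Its call was lost with DESeq2 (adjusted p = 0.18), and in edgeR without pool B of D5 (adjusted p = 0.011), pool A of D7 (0.010) or pool B of D7 (0.017). SPP1, the secreted protein osteopontin, fell, with 1.18, 0, 11.8, 36.8, 135 and 52.5 CPM in chosen cells and 2.18, 1.75, 93.2, 88.6, 399 and 268 CPM in the others (log2 fold change −1.97, SE 0.18, adjusted p = 5.5e-07). On D3 both classes were low, as on D0 (0.582 and 0.659 CPM), so that this fall too rests on D5 and D7.

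The largest rises among well-expressed genes, at 50 CPM or more in chosen cells of each pool, were those of EREG, CCL2, MMP1, POU2F2, TNFRSF11B, STC1, PLAU and PTX3. POU2F2, a transcription factor best known from B cells, had 145, 196, 197, 208, 123 and 167 CPM in chosen cells and 28.0, 46.7, 33.8, 28.5, 14.5 and 30.6 CPM in the others (log2 fold change 2.65, SE 0.10, adjusted p = 1.5e-10). The D0 level of 27.1 and 28.7 CPM lay among the other cells. PTX3, a secreted pattern recognition protein, rose by 2.27 on the log2 scale, with D0 at 156 and 140.1 CPM.

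The matrix of fibroblasts was higher as well. Of 25 collagens and other matrix genes 19 rose and none fell, with a median of 0.88. COL6A2, a chain of collagen VI, had 2144, 726, 3827, 2056, 1131 and 2811 CPM in chosen cells and 581, 268, 1227, 482, 255 and 941 CPM in the others, higher in each pool although the groups overlapped (log2 fold change 1.88, SE 0.08, adjusted p = 3.6e-10). THBS2, a thrombospondin, rose by 2.03 and the glycoprotein TNC by 1.90 on the log2 scale. Contractile and TGF-beta target genes gave 12 higher and 3 lower of 21 (median 0.50), with LTBP1, which stores TGF-beta in the matrix, at 1.55, its receptor TGFBR2 at 1.28 and the smooth muscle actin ACTG2 at −1.0001.

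Mesenchymal transcription factors and surface markers gave 11 higher and 3 lower of 19 (median 0.89). ANPEP, or CD13, rose from 118 ± 81.2 to 438 CPM ± 278 (SD, n = 6 pools; edgeR log2 fold change 2.06), and its mean on D0 was 429.9 CPM. TWIST2 rose by 1.38 and N-cadherin, CDH2, fell by 1.46 on the log2 scale.

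The other direction was taken by genes of reprogramming. All 12 early reprogramming and pluripotency genes that were tested fell, with a median of −2.15, while the other 12 of the list were in fewer than 5% of cells. L1TD1, an RNA-binding protein of pluripotent cells, had 2.36, 4.40, 19.8, 32.0, 73.0 and 40.0 CPM in chosen cells and 29.4, 58.5, 148, 184, 234 and 165 CPM in the others, lower in each pool (log2 fold change −2.29, SE 0.16, adjusted p = 3.5e-08). TDGF1, a co-receptor of Nodal, fell by 3.10 and UTF1, a chromatin factor, by 1.86 on the log2 scale. On D3 both classes had at most 0.589 CPM of TDGF1 and 0.134 CPM of UTF1, so both falls rest on the later days. When chosen and other cells were not paired by pool, 0 higher and 0 lower were called in this list. Of the 12 genes 7 were called lower with DESeq2, 5 with cells thinned to 5000 UMIs and 9 without pool B of D7. Over all 12300 genes 220 were called lower without pairing, 1964 with DESeq2, 927 when thinned and 1745 without pool B of D7.

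Of the transfected factors and the RNAs that moved with them 5 of 8 fell and 2 rose. LIN28A had 9.42, 24.9, 31.9, 39.4, 107 and 26.1 CPM in chosen cells and 14.6, 65.5, 201, 273, 225 and 89.8 CPM in the others (log2 fold change −1.84, SE 0.21, adjusted p = 4.1e-06). POU5F1 had 0.589, 2.201, 1.02, 1.30, 9.95 and 3.33 CPM in chosen cells and 0.673, 1.40, 3.80, 6.28, 40.8 and 32.6 CPM in the others (log2 fold change −2.25, SE 0.25, adjusted p = 3.8e-06). It did not differ in a constant direction on D3 and was lower in chosen cells of the 4 pools of D5 and D7. NANOG fell by 2.81 on the log2 scale and reached at most 2.58 CPM in chosen cells, and SOX2 fell by 1.64. On D3 NANOG was at most 0.0868 CPM in both classes, so its fall rests on D5 and D7. MYC and KLF4, the members that rose, KLF4 in 5 of 6 pools (log2 fold changes 1.36 and 0.85, named after their values were seen), are also genes of fibroblasts. Counts of transfected mRNA and of the cell's own mRNA cannot be told apart in these files.

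AES, a transcriptional corepressor, had 6852, 3119.8, 3437, 2463, 5239 and 3166 CPM in chosen cells and 11645, 7821, 15802, 13161, 9205 and 7759.8 CPM in the others, against 142 and 159.7 CPM on D0 (log2 fold change −1.38, SE 0.18, adjusted p = 1.6e-05). AES is a member of the list of transfected factors and RNAs that moved with them. Which part of its counts was the cell's own mRNA and which may have come with the transfection was not tested. Chosen cells were the lower in each pool, and 72.5 to 87.5% of them lay below the AES median of their library. Among cells below that median alone, a comparison added after the data had been seen, 1150 genes were called higher and 985 lower. There the chemokines gave 6 higher and 0 lower, NF-kappaB genes 16 higher and 0 lower, matrix genes 12 higher and 0 lower (median 0.31) and pluripotency genes 0 higher and 10 lower. Contractile genes gave 4 higher and 2 lower (median 0.03), AP-1 genes 9 higher and 2 lower, S phase genes 0 higher and 9 lower and mitosis genes 0 higher and 16 lower. Each of these lists had fewer calls in its main direction than among all cells. So did the whole set of genes tested, with 2143 higher and 2098 lower among all cells. In the 3 pools with enough chosen cells at or above the AES median, 580 of 12300 genes were called higher and 359 lower. There matrix genes gave 20 higher and 0 lower (median 1.21), contractile genes 7 higher and 0 lower (median 0.75), NF-kappaB genes 9 higher and 0 lower and pluripotency genes 0 higher and 6 lower.

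Epithelial junction and keratin genes gave 0 higher and 8 lower of 12 (median −0.89). Without pairing by pool 0 higher and 0 lower were called, with DESeq2 5 were lower and when thinned 4, and with a limit of 500 CPM 2 higher and 7 lower. Over all genes these settings gave, in the same order, 461 higher and 220 lower, 2008 and 1964, 690 and 927, and 2476 and 2307. KRT18, a keratin of simple epithelia (chromosome 12, 52948871 to 52952906), had 94.8, 71.9, 123, 158, 468 and 309 CPM in chosen cells and 271, 202, 562, 577, 1127 and 722 CPM in the others (log2 fold change −1.51, SE 0.11, adjusted p = 4.3e-08). CLDN6, a tight junction protein of the early embryo, fell by 2.33 and PODXL, a surface sialomucin of pluripotent cells, by 1.93 on the log2 scale. CLDN6 was at most 0.127 CPM in both classes on D3 and its fall, too, rests on the later days. The largest falls at 50 CPM or more in the other cells of each pool were those of RP11-148B6.1, MLF1, CENPV, KRT18, AES, CCDC109B, PYGL and UBE2S. RP11-148B6.1, a long noncoding RNA (chromosome 4, 112646476 to 112650051), had 4.71, 14.7, 23.1, 48.4, 119.8 and 20.0 CPM in chosen cells and 63.1, 90.5, 277, 394, 522 and 173 CPM in the others (log2 fold change −2.87, SE 0.15, adjusted p = 2.8e-09), and next to none on D0 (0.0420 and 0.0204 CPM).

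**Figure D3:**
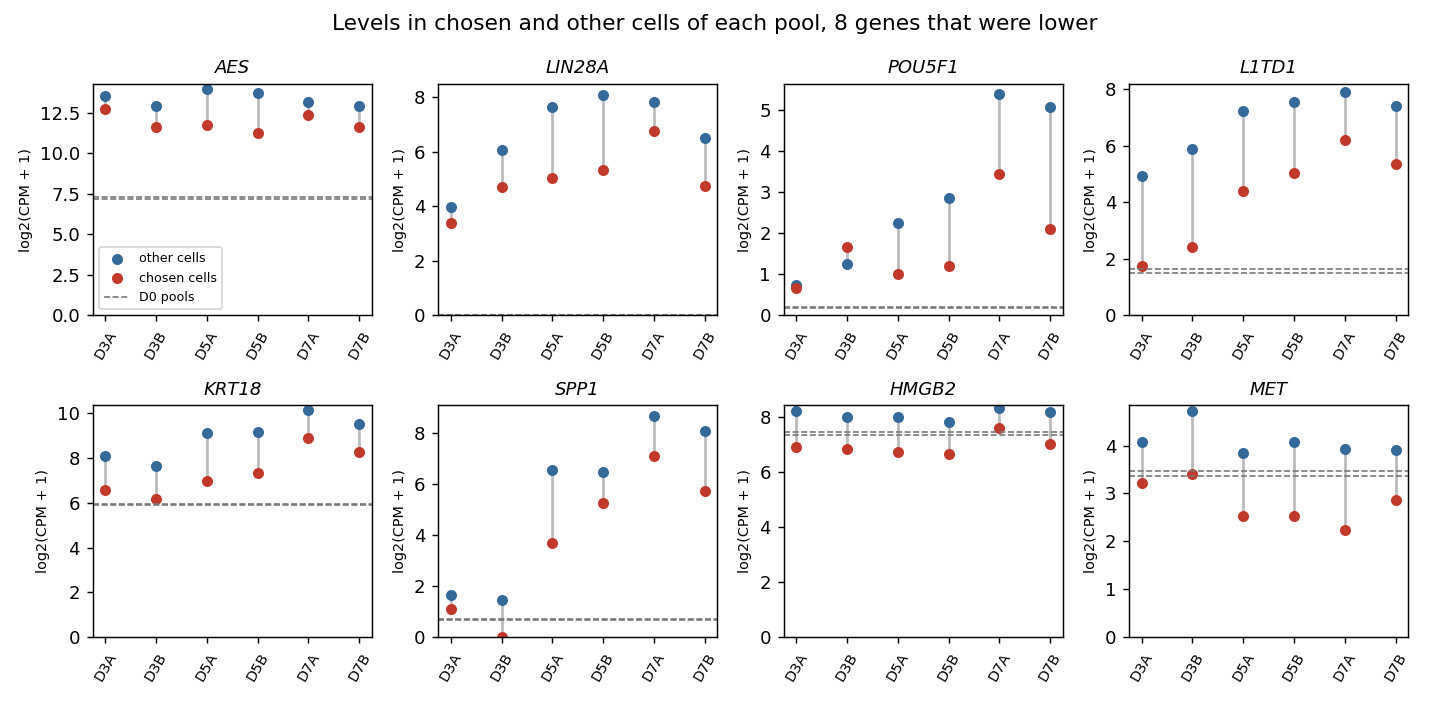
Levels of 8 genes in chosen cells (red) and other cells (blue) of each pool, joined by a line (y axis, log2(CPM + 1)), with both D0 pools as dashed lines. Chosen cells lie below the other cells in each pool except for POU5F1 in pool B of D3 (2.201 against 1.40 CPM).

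Fewer chosen cells were assigned to a dividing phase. At 5000 UMIs per cell, 26.3, 28.3, 27.0, 28.1, 40.0 and 23.9% of chosen cells were scored as S or G2M, against 58.4, 57.4, 43.8, 38.5, 71.0 and 51.0% of the others. The mean difference was −24.4 percentage points ± 8.80 (SD, n = 6 pools), lower in 6 of 6 pools. An exact permutation of the 64 arrangements of signs, two-sided, gave p = 0.031, which is the lowest value this design can reach. Without thinning the shares were 28.3 to 37.5% and 42.1 to 72.3%. Of 54 mitosis genes 43 were called lower and 1, CKAP2L, named after its value was seen, higher (median −0.68), and of 42 S phase genes 28 were lower and none higher (median −0.57). The phases were scored with both of these lists, so their counts are not separate evidence from the phase shares. HMGB2, a chromatin protein of dividing cells, had 118, 112, 105, 98.6, 192 and 128 CPM in chosen cells and 300.1, 252, 256, 226, 322 and 289.6 CPM in the others (log2 fold change −1.06, SE 0.07, adjusted p = 2.2e-08). NDC80, of the kinetochore, fell by 1.16 and LBR, of the nuclear envelope, by 1.05 on the log2 scale. HELLS and DSCC1, of replicating chromatin, fell by 0.85 and 0.82.

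The share of dividing cells moved with the choice, so the comparison was also made among cells scored as G1. There 1193 genes were called higher and 1091 lower, mitosis genes gave 1 higher and 9 lower, and chemokines gave 5 higher and 0 lower, NF-kappaB genes 14 higher and 0 lower and pluripotency genes 0 higher and 8 lower. The mitosis and S phase genes set the phase, so their fewer calls among G1 cells follow from the choice of these cells. Several other lists also had fewer calls there than among all cells, as had the whole set of genes tested (2143 higher and 2098 lower among all cells). S phase genes gave 1 higher and 6 lower, AP-1 genes 11 higher and 2 lower and interferon-stimulated genes 5 higher and 3 lower. Matrix genes gave 13 higher and 1 lower with a median of 0.43, and contractile genes 5 higher and 2 lower with a median of 0.10. Among all cells, cell cycle inhibitors and p53 targets were split, with 9 higher and 7 lower of 23 (median 0.26). PMAIP1, a promoter of apoptosis, rose by 0.85, and CDKN1C, an inhibitor of cyclin-dependent kinases, was called at −0.94 with an adjusted p of 0.0087 from edgeR. The call of CDKN1C was lost without either pool of D3, either pool of D5 or pool A of D7 (adjusted p from 0.010 to 0.067).

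**Figure D4:**
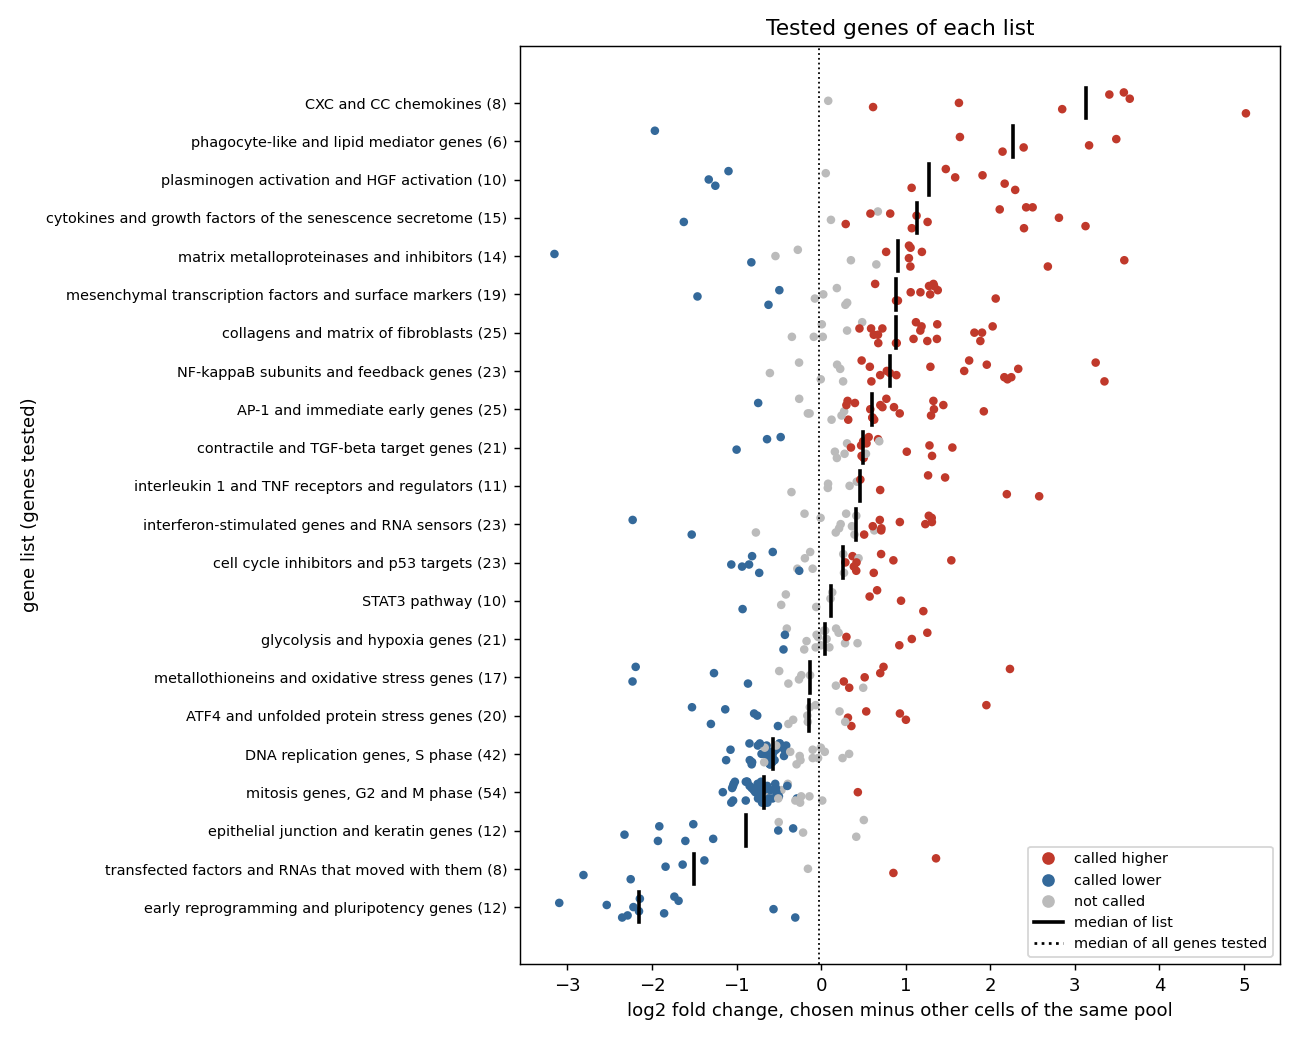
Log2 fold change between chosen and other cells (x axis) of each tested gene of the 22 lists (y axis, number tested in brackets), in red where called higher, blue where called lower and grey where not called. The black bars are list medians, from −2.15 for early reprogramming and pluripotency genes to 3.13 for chemokines, and the dotted line is the median of all genes.

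AP-1 and immediate early genes gave 18 higher and 1 lower of 25 (median 0.60). MAFF, a partner of AP-1 type factors, rose by 1.92, the phosphatase DUSP1 by 1.45 and the transcription factor CEBPD by 1.33 on the log2 scale. DUSP1 and CEBPD stood higher still on D0, at means of 212 and 78.8 CPM, than in chosen cells, at 60.6 ± 21.7 and 48.1 CPM ± 5.93 (SD, n = 6 pools).

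Interferon-stimulated genes and RNA sensors gave 10 higher and 2 lower of 23 (median 0.42). IFIH1, the sensor MDA5 of double-stranded RNA, fell by 2.23 on the log2 scale, from 15.8 ± 2.95 to 3.64 CPM ± 2.23 (SD, n = 6 pools; edgeR adjusted p = 2.9e-07), and its groups did not overlap. BST2, which tethers virus particles, and IFI35 rose by 1.31 and 1.27. The rise of BST2 was uneven, with a log2 ratio of (CPM + 1) of 2.61 in pool A of D7 and 0.16 to 0.97 in the other pools. For genes of the STAT3 pathway the result was 4 higher and 1 lower of 10 (median 0.12), with the shared receptor chain IL6ST at 1.21, the feedback inhibitor SOCS3 at 0.94 and the kinase JAK1, whose gene overlaps RP4-535B20.4, at 0.66.

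The metallothioneins, small metal-binding proteins, did not move together. MT2A had 3011, 5016, 7227, 6919, 2866 and 3136 CPM in chosen cells and 712, 1473, 1054, 1009, 924 and 862 CPM in the others (log2 fold change 2.23, SE 0.13, adjusted p = 6.7e-09), while MT1G and MT1H fell by 2.23 and 2.19 on the log2 scale. Their list, with oxidative stress genes, gave 6 higher and 4 lower of 17 (median −0.13). These genes are near copies of one another, and how shared reads were assigned is not given in the sources used here. Genes of ATF4 and the unfolded protein response gave 6 higher and 6 lower of 20 (median −0.15), with CHAC1, which degrades glutathione, at 1.95, PSAT1, of serine synthesis, at −1.53 and the cystine transporter SLC7A11 at −1.30. Of the glycolysis and hypoxia genes 4 of 21 were higher and 2 lower (median 0.05), close to or below the shares over all genes. NDRG1, a hypoxia-induced gene, was at 1.26, PFKFB3, which drives glycolysis, at 0.92 and the glucose transporter SLC2A1 at −0.45.

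The levels of CXCL2, MMP1 and COL6A2 already differed among cells below the limit, although MMP1 and COL6A2 were no higher in the second step than in the first. In cells at 0 to 1, 1 to 100, 100 to 500, 500 to 1000, 1000 to 2000 and 2000 to 5000 CPM of the 3 genes, MMP1 had means over the 6 pools of 765, 727, 1751, 2981, 4126 and 5044 CPM. CXCL2 had 0.856, 0.888, 3.06, 8.75, 15.5 and 40.2 CPM over the same steps. COL6A2 had 653, 516, 1002, 1564, 1904 and 2134 CPM. AES was highest in the step from 1 to 100 CPM and lower in the steps from 500 CPM up than in those below, with 8999, 11724, 10412, 5758, 3770.4 and 4805 CPM. These steps are cut from the measure that chose the cells and are given as a description. MMP3 had 6.07, 6.36, 17.1, 17.7, 37.5 and 137 CPM, and its last value varied widely between pools (SD 217, n = 6).

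**Figure D5:**
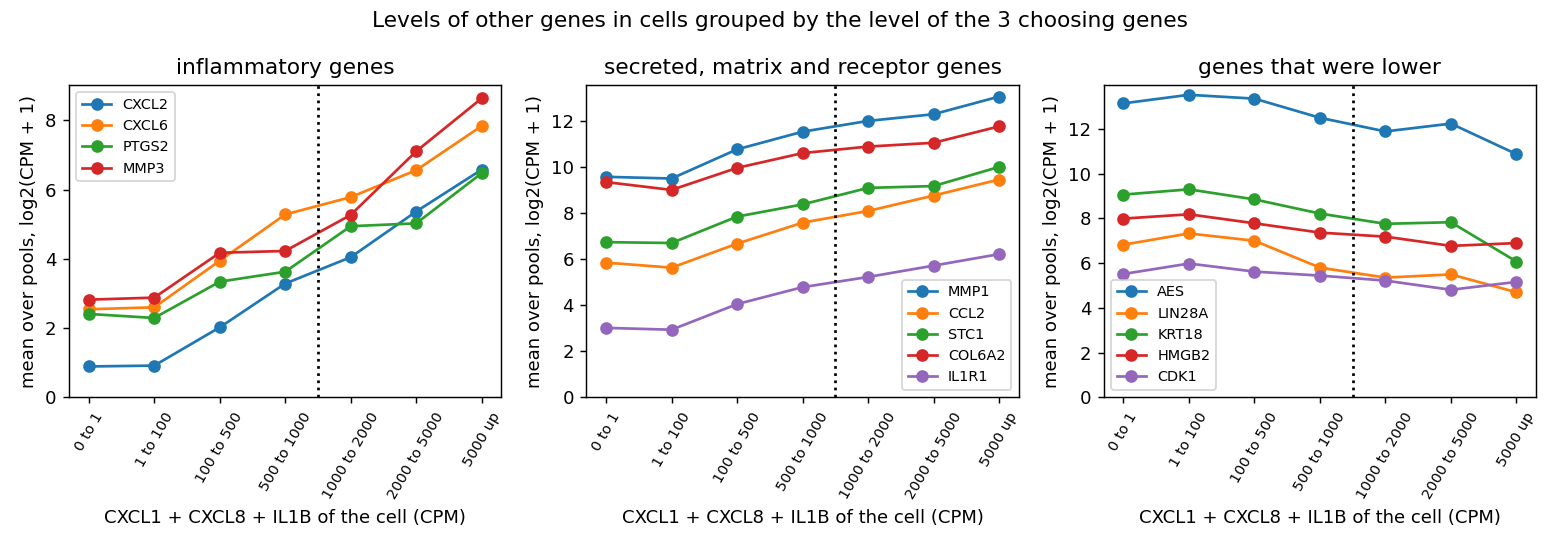
Mean level over pools (y axis, log2(CPM + 1)) of 14 genes in cells grouped by their summed CPM of CXCL1, CXCL8 and IL1B (x axis), with the limit of 1000 CPM as a dotted line. Means are over 6 pools, or over the 3 pools with at least 10 cells at 5000 CPM or more. MMP1 stands at 765 and 727 CPM in the lowest steps and at 5044 CPM between 2000 and 5000.

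Between D3, D5 and D7 the difference of chosen from other cells itself differed for 140 of the 12300 genes (1.14%, edgeR quasi-likelihood F test of class by day, adjusted p below 0.01). At an unadjusted p below 0.05 there were 1938. Of the 80 genes named by rule 11 were among them, and of the others described CCL11, NFKBIA (adjusted p = 1.1e-05) and THY1 (adjusted p = 0.0081). The excess of CCL2 was 3.40 on D3, 2.30 on D5 and 2.91 on D7 on the log2 scale (adjusted p = 0.0025 from edgeR), and that of CXCL3 was 4.83 on D3, 3.28 on D5 and 3.22 on D7 (adjusted p = 0.005). For MMP1 the difference was larger on the later days, with 1.97 on D3, 2.88 on D5 and 3.19 on D7 (adjusted p = 0.0032), its level in the other cells being lower on D7 than on D3. AES was lower in chosen cells by the most on D5, with −0.96 on D3, −2.24 on D5 and −0.95 on D7 (adjusted p = 4.7e-05), and so were LIN28A and KRT18. CXCL2, PTGS2, HGF and MET had no such call (adjusted p from 0.14 to 0.85 from edgeR), which does not show that their differences were equal. Pool A of D3 mattered most here: 79 genes were called without it, and 171 and 175 without pools A and B of D7.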

How the data were processed

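Per the labels and the study's methods, the authors counted UMIs per gene and cell barcode with Cell Ranger 2.2 on GRCh38 from 10x 3′ libraries of cryopreserved cells. The deposited counts are raw, for 33694 genes and 44197 barcodes, with aliquots of a pool as separate libraries. Barcodes were kept with 1000 genes or more and no more than 10% of their UMIs on MT- genes. Aliquots were added together, and the UMIs of chosen and other cells were summed per pool. CXCL1, CXCL8 and IL1B were removed from the table and from the library sizes, because the choice of cells used them, and genes found in at least 5% of the cells of D3 to D7 were tested.

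The 12 sums were compared with edgeR 4.0.16 in R 4.3.3 (quasi-likelihood test, TMM, pool as block), tested on simulated counts. SE is the log2 fold change divided by the root of F. DESeq2 1.42.0 and the settings of the closing section were alternatives. Phases were scored with scanpy 1.11.5 from the S phase and mitosis lists, thinned cells held 5000 UMIs, and Python 3.11.15 with matplotlib 3.10.9 drew the figures. Gene coordinates are those of GENCODE on GRCh38. Intervals of shares are exact (Clopper-Pearson, 95%). The members, the 22 gene lists and the tests were chosen with earlier results of these data known. Genes were named by rule: the 8 largest rises and falls at 50 CPM or more in the higher class of each pool, up to 3 called members of each list at 10 CPM or more, and MMP3, NANOG, POU5F1, LIN28A, AES, HGF, MET and SPP1. Others belong to the marker lists or are said to be named after their values were seen. A gene that the rule names is not reported here. The restriction by AES was added after the data were seen.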

Additional observations from a re-analysis of the deposited data

Results flagged for a closer look

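Among the 80 genes named by rule, the log2 ratio of (CPM + 1) between chosen and other cells was examined in the 6 pools for a pool far from the rest, by its gap to the nearest other pool. Such a pool was found for 6 of the 80 genes. Chance gives about 1 in 20, so this count is near what chance gives and the values below are a description. BST2 stood at 2.61 in pool D7A, with 0.16 to 0.97 in the other 5 pools. IFI35 stood at 0.68 in pool D3B, with 1.05 to 1.21 in the other 5 pools. PSAT1 stood at −2.89 in pool D3A, with −1.62 to −1.11 in the other 5 pools. HMGB2 stood at −0.74 in pool D7A, with −1.33 to −1.16 in the other 5 pools. PMAIP1 stood at 1.17 in pool D7A, with 0.55 to 0.75 in the other 5 pools. LTBP1 stood at 1.03 in pool D7B, with 1.47 to 1.60 in the other 5 pools. Pool A of D7 was the outlying pool in 3 of these 6 genes and had 40 chosen cells.

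The difference of chosen from other cells differed between D3, D5 and D7 for 11 of the named genes in edgeR's test of class by day. The adjusted p was 0.00245 for CCL2, 0.00498 for CXCL3, 0.0032 for MMP1 and 4.7e-05 for AES, with the values by day given above. For KRT18 the log2 fold changes were −1.42 on D3, −1.98 on D5 and −1.14 on D7 (adjusted p = 0.00022 from edgeR). For SLC7A11 the log2 fold changes were −2.45 on D3, −1.49 on D5 and −0.53 on D7 (adjusted p = 0.00800 from edgeR). For TNC the log2 fold changes were 2.34 on D3, 2.15 on D5 and 1.28 on D7 (adjusted p = 0.000343 from edgeR). For ACTG2 the log2 fold changes were −2.82 on D3, −1.56 on D5 and −0.37 on D7 (adjusted p = 4.7e-05 from edgeR). For L1TD1 the log2 fold changes were −3.62 on D3, −2.69 on D5 and −1.77 on D7 (adjusted p = 0.00106 from edgeR). For LIN28A the log2 fold changes were −1.10 on D3, −2.63 on D5 and −1.28 on D7 (adjusted p = 0.000381 from edgeR). For MT2A the log2 fold changes were 2.00 on D3, 2.85 on D5 and 1.85 on D7 (adjusted p = 4.13e-05 from edgeR). On D3 the falls of ACTG2, L1TD1 and SLC7A11 were the largest of the 3 days.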

How the results depend on the processing

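Without the replicate block, that is without pairing chosen and other cells of 1 pool, 461 genes were called higher and 220 lower. Thinned to 5000 UMIs, 690 and 927 were called, among G1 cells 1193 and 1091, among cells below the AES median 1150 and 985, and in the 3 pools with at least 10 chosen cells at or above it 580 and 359, both AES settings having been chosen after seeing the data. Without the filter on genes 1827 were higher and 3400 lower, which took the share of higher calls from 50.5% to 35.0%. By list, without the block, there were for NF-kappaB genes 10 higher and 0 lower, matrix genes 9 higher and 0 lower, contractile genes 4 higher and 0 lower, AP-1 genes 4 higher and 0 lower, S phase genes 0 higher and 2 lower and mitosis genes 0 higher and 12 lower, and when thinned for NF-kappaB genes 11 higher and 0 lower, matrix genes 14 higher and 1 lower, contractile genes 5 higher and 2 lower, AP-1 genes 9 higher and 0 lower, S phase genes 0 higher and 10 lower and mitosis genes 0 higher and 30 lower. Without the block SASP cytokines gave 6 higher and 0 lower and interferon-stimulated genes 4 and 1. Mesenchymal genes gave 2 and 1, transfected factors 0 and 1 and cell cycle inhibitors 1 and 1. When thinned, these lists gave in the same order 7 and 1, 6 and 3, 11 and 2, 1 and 3, and 4 and 4. Leaving out each pool gave 1817 to 2103 higher and 1581 to 1909 lower, and 79 to 175 genes that differed between days. With limits of 500 and 2000 CPM, 324 and 64 genes differed between days. These limits moved the mean share of chosen cells to 3.02% and 0.609% on D3, 16.0% and 7.17% on D5 and 6.57% and 1.53% on D7. The difference in dividing cells was −27.2 to −22.9 points with 1 pool left out, where the exact permutation test of 5 pools cannot go below p = 0.062. SLC2A1 changed sign to 0.11 at or above the AES median. No other named gene changed direction, and of the 80 named genes 28 lost their call without the block, 9 when thinned, 17 at or above and 10 below the AES median, and at most 5 under each other setting. The causes were not tested. Chosen cells numbered 38 to 252 per pool, which limits what genes of a few CPM can show.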
